A study of Mus musculus with 96 samples.

Results

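The 4 starved samples of 2 serum time courses were compared, 2 of Cycle 1 and 2 of Cycle 2, out of 96 samples in all. They were chosen by their labels alone: in each time course 1 sample was taken 1 h before serum (-1 h) and 1 just before it (0 h). The cells were primary mouse embryonic fibroblasts (MEFs) of CF-1 embryos at day E13, for which no engineered allele is named, held for 36 h in 0.5% fetal calf serum (FCS) in the starved samples of both Cycles. FCS was then raised to 20%, and poly(A) RNA was sequenced every 0.5 h or 1 h. Primary MEFs are a mixed population grown from whole embryos, and the labels do not say whether the -1 and 0 h samples of a Cycle were separate dishes. The p-values below therefore measure the spread between 2 samplings of what may be 1 culture, and Cycle, culture and batch cannot be told apart.

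Fibroblasts deprived of serum growth factors leave the cell cycle after mitosis and enter a reversible G0 state. In G0 the pocket proteins and the DREAM complex repress the genes of S phase and mitosis, the S phase genes mainly through E2F sites and the mitotic genes mainly through an element called CHR, which the MuvB core of the complex contacts directly. When serum returns, immediate early genes such as Fos and Egr1 are transcribed within minutes, then E2F target genes before S phase and mitotic genes before division. The level of these late genes in starved cells is a common measure of how completely a culture has arrested. Cdk inhibitors and genes of growth arrest are usually high in such cells.

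The promoters of 4 mitotic genes are printed because, of the named mitotic and replication genes with a searched motif in a RefSeq promoter, their transcripts differed most between the starved cultures. Each stretch runs from 150 bases before the RefSeq start to 10 bases from it on (GRCm38.p6, printed 5′ to 3′ on the strand of the gene), and capitals mark TTTGAA, the core letters of CHR, or its reverse complement TTCAAA.
Depdc1a: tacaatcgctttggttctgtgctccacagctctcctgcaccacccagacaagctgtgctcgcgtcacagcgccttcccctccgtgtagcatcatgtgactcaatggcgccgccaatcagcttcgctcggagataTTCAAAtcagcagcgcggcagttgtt
Prc1: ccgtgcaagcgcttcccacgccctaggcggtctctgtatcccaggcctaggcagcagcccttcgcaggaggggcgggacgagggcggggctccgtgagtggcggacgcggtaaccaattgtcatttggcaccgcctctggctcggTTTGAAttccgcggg
Ube2c: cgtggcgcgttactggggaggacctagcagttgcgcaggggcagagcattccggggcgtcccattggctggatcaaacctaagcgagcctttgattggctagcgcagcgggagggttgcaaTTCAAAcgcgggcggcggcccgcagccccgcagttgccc
Cdk1: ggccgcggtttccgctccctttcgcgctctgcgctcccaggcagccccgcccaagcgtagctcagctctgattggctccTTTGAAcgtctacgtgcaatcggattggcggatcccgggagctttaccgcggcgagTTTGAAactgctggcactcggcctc
They lie at chr3:159495283-159495442 (+ strand), chr7:80294301-80294460 (+ strand, 1 of 2 RefSeq promoters of this gene), chr2:164769779-164769938 (+ strand) and chr10:69352903-69353062 (- strand). Counting the start as base 1 with no base 0, the letters lie at bases -16 to -11 in Depdc1a, -5 to 1 in Prc1, -29 to -24 in Ube2c, and -71 to -66 and -15 to -10 in Cdk1. Within 250 bases before and 50 after the start, on either strand, TTTGAA was found in 43 of 62 mitotic genes with a RefSeq promoter (69.4%), in 8 of 48 replication genes (16.7%) and in 14.3% of 11510 genes of the expression table with a promoter. It was found in 17.9% of all 32851 RefSeq promoters. The E2F words TTTCCCGC and TTTGGCGC had the opposite distribution, with 1 or both in 15 of 48 replication genes (31.2%), 4 of 62 mitotic genes (6.45%) and 3.13% of the table's genes. A promoter can hold both kinds, as 3 mitotic and 2 replication genes did. These are matches of letters, and no binding was measured here.

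Values are reads per 10000000, as deposited, and differences are log2(value + 1) of Cycle 2 minus Cycle 1, given ± SE from 2 samples per Cycle. A gene was called higher or lower in Cycle 2 where limma gave a Benjamini-Hochberg adjusted p under 0.05 and the difference exceeded 1 in size. The smallest adjusted p in the table was 0.0153, shared by 325 genes. The starved samples held 6653371 and 10967609 recovered reads at -1 and 0 h of Cycle 1 and 10483215 and 12135177 in Cycle 2. Over all genes, the log2 values of -1 and 0 h correlated at a Pearson r of 0.982 in Cycle 1 and 0.987 in Cycle 2, against 0.955 to 0.963 between Cycles. These correlations are across genes, which are not independent replicates. Of 10910 genes with a mean of at least 50, 112 differed by more than 2-fold between -1 and 0 h in Cycle 1, 73 did in Cycle 2, and 1061 differed by that much between the Cycle means.

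The 0 h samples did not resemble the -1 h samples in their immediate early genes. Fos, an AP-1 subunit, stood at 914 at -1 h and 24883 at 0 h in Cycle 1, and at 466 and 15148 in Cycle 2. The 0 h values were of the size seen after serum, where Fos measured 12203 at 0.5 h of Cycle 2 and 5632 and 5981 at 1 h of the 2 Cycles. Egr1, a zinc finger factor induced by serum, went from 3404 to 28363 in Cycle 1 and from 1760.0 to 18343 in Cycle 2. In all, 38 genes were over 4-fold higher at 0 h than at -1 h in Cycle 1 and 29 in Cycle 2. The sets shared 26 genes, which is 68.4% of the first and 89.7% of the second, and 14 of the 26 are on the list of immediate early serum-response genes. Fosb, Nr4a1, Atf3, Zfp36, Dusp1, Il6 and Cxcl1 are among them, named here after their values were seen. The source of this step was not tested. None of the 26 was called between Cycles. Their step is part of the spread that the test uses, so a call was hardly possible and its absence does not show equal levels. The starved counts over all genes and the medians of the main gene lists were also taken at -1 h alone.

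Between the starved Cycles, 642 of 15895 genes were called higher in Cycle 2 (4.04%) and 957 lower (6.02%), 10.1% in either direction. The median difference over all genes was -0.08, and the median size of a difference was 0.38. The 4 values of a gene fell into non-overlapping pairs by Cycle in 10859 genes (68.3%), so separation of the pairs alone was common. Adjusted p alone passed 3079 genes, and 6303 had an unadjusted p under 0.05. With -1 h alone, where no test was possible, 1077 genes were over 1 higher (6.78%) and 1955 over 1 lower (12.3%). Leaving out any 1 of the 4 samples left 0 calls with this fit, and 463 to 683 higher and 695 to 861 lower with limma's mean-variance trend and robust fit, which called 736 and 1224 from all 4. With hour as a block, which takes out the step shared by both Cycles, the fit left 0 calls in either direction, and 780 higher and 1311 lower with the trend and robust fit.

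Mitotic genes were higher in the starved cells of Cycle 2 almost throughout the list. Of 75 genes of the spindle, kinetochore, cytokinesis and the G2/M switch, 70 were called higher and 0 lower, with a median difference of 1.64 against -0.08 over all genes. At -1 h alone 69 of the 75 were over 1 higher, with a median of 1.61. Mki67, the proliferation antigen (mm9 chr7:142881471-142908062), stood at 1088 and 1205 in Cycle 1 and 3465 and 3310.2 in Cycle 2, a difference of 1.56 ± 0.101 (limma, adjusted p = 0.0153). Cdk1, the mitotic kinase (chr10:68799383-68815686), measured 696 and 576 in Cycle 1 and 2312 and 2063 in Cycle 2 (1.78 ± 0.146). Its partner Ccnb1 stood at 109.7 and 116 in Cycle 1 and 413 and 416 in Cycle 2 (1.87 ± 0.0850). In all 3 genes both samples of Cycle 2 lay far above both of Cycle 1, by more than the gap between -1 and 0 h.

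Top2a, the topoisomerase that untangles chromosomes, measured 1324 and 1305 in Cycle 1 and 4485 and 4166 in Cycle 2 (1.72 ± 0.0898). Ccna2, the cyclin of S phase and early mitosis, stood at 911 and 683 in Cycle 1 and 2687 and 2307 in Cycle 2 (1.66 ± 0.198). The largest differences of the list belonged to Depdc1a, a mitotic protein gene whose promoter is printed above, at 14.5 and 17.6 in Cycle 1 and 68.7 and 70.6 in Cycle 2 (2.05 ± 0.130), and to Prc1, which bundles the midzone microtubules, at 513 and 535 in Cycle 1 and 2148 and 2063 in Cycle 2 (2.01 ± 0.0860). Bub1, a spindle checkpoint kinase, differed by 1.98 ± 0.0950, and Ube2c, the E2 enzyme of the anaphase-promoting complex, by 1.94 ± 0.1. Differences across the list ran from 0.63 in Bub3 to 2.05 in Depdc1a. The 5 members that were not called were Bub3, Cdc25b, Hjurp, Smc4 and Kifc1, all with positive differences. A larger share of cycling cells and more such RNA per cell cannot be told apart in bulk RNA.

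**Figure D1:**
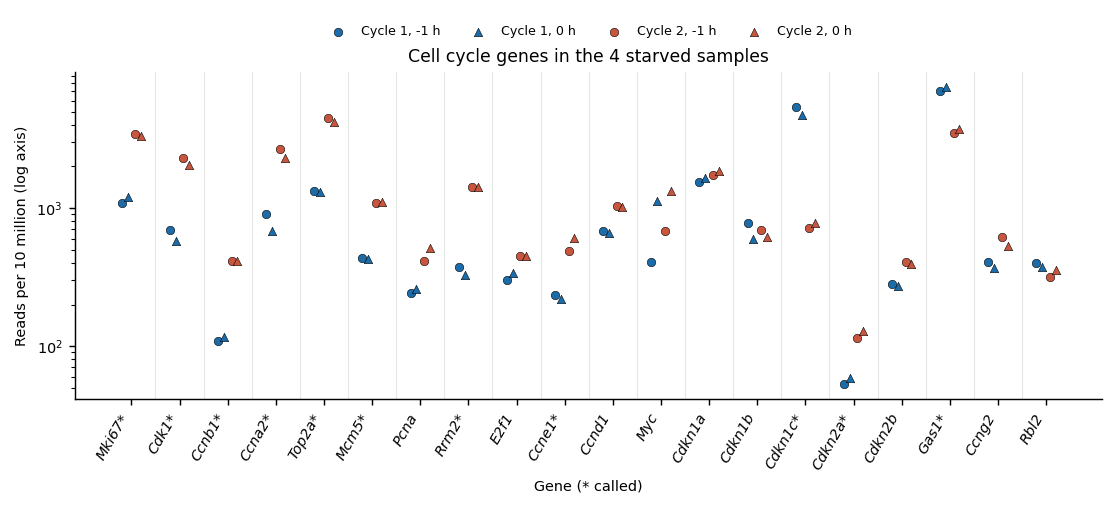
Values of cell cycle genes in the 4 starved samples, in reads per 10000000 on a log axis, 1 point per sample and an asterisk on genes called. Mki67 stood at 1088 and 1205 in Cycle 1 and 3465 and 3310.2 in Cycle 2, while Pcna, E2f1 and Ccnd1 lay closer together.

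Replication genes moved in the same direction by less. Of 61 genes of licensing, forks and deoxynucleotide supply, 29 were called higher and 0 lower, and all 61 had a positive difference, with a median of 0.96. At -1 h alone the median was 0.94. Rrm2, the S phase subunit of ribonucleotide reductase, had the largest difference, from 373 and 327 to 1425 and 1424 (2.02 ± 0.107). Exo1, an exonuclease of repair and replication, differed by 2.00 ± 0.228. Chaf1b, a chromatin assembly subunit, differed by 1.77 ± 0.131, and Cdc6, the licensing ATPase, by 1.69 ± 0.118. Mcm5, a subunit of the replicative helicase, stood at 433 and 430.4 in Cycle 1 and 1085 and 1114 in Cycle 2 (1.35 ± 0.0810, adjusted p = 0.0153). Pcna, the sliding clamp, was not called: it measured 242 and 257 against 415 and 510.1 (0.88 ± 0.143). Its 2 values in each Cycle did not overlap with those of the other, a separation shared by 68.3% of all genes.

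The regulators that sit upstream of S phase had a smaller median difference. Of 27 G1 and S cyclins, kinases, E2f factors and pocket proteins, 7 were called higher and 0 lower, with a median of 0.39. The called genes were E2f8, Ccne2, E2f2, Lin9, Lin54, Ccne1 and Rbl1, of which Lin9 and Lin54 encode MuvB subunits. E2f8, a late repressor of E2F targets, stood at 75.2 and 100.3 in Cycle 1 and 270.0 and 282 in Cycle 2 (1.66 ± 0.179). Ccne1, the cyclin that opens S phase with Cdk2, stood at 234 and 218 in Cycle 1 and 491 and 602 in Cycle 2 (1.26 ± 0.144). E2f1, the activator of the family, was not called: it measured 302 and 339 against 449 and 452 (0.49 ± 0.102, adjusted p = 0.0589). Ccnd1, the growth factor-responsive cyclin of G1, measured 681 and 662 against 1037 and 1015 (0.61 ± 0.0819) and so fell short of the fold asked for, as did the DREAM pocket protein Rbl2 at 399.8 and 371 against 319 and 354 (-0.20 ± 0.107). Myc overlapped between the Cycles, since it stood at 404 and 678 at -1 h and at 1132 and 1337 at 0 h.

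Of the 7 Cdk inhibitors, 1 was called higher and 1 lower. Cdkn1c, which encodes the imprinted inhibitor p57 (mm9 chr7:150644255-150646955), was 6.72-fold higher in Cycle 1, at 5381 and 4685 in Cycle 1 and 717 and 780.0 in Cycle 2 (-2.75 ± 0.120, limma adjusted p = 0.0153). Cdkn2a, the locus of p16 and p19Arf, was called in the other direction, at 53.4 and 58.4 in Cycle 1 and 114 and 129 in Cycle 2 (1.11 ± 0.113). Cdkn1b, which encodes p27, the inhibitor most often linked with serum deprivation, overlapped between Cycles at 774 and 596 against 697 and 621 (-0.05 ± 0.177). Cdkn1a, which encodes the p53 target p21, measured 1552 and 1660.3 against 1738 and 1844 (0.16 ± 0.0939), and Cdkn2b 279.6 and 274 against 404 and 392 (0.52 ± 0.0817). These 5 genes show that the inhibitors did not move as a group. Genes of p53 and its targets were mostly not called, with 2 higher and 2 lower of 26 and a median of -0.04. Over all genes 4.04% were called higher and 6.02% lower. The p53 targets called higher, Gtse1 and Ckap2, are also genes of mitosis, and those called lower were Ddit4l and Sulf2.

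Genes of growth arrest were lower in the starved cells of Cycle 2 in part. Of 34 growth-arrest, antiproliferative and FoxO target genes, 7 were called lower and 1 higher, with a median of -0.47. Agtr2, the angiotensin receptor type 2, had the largest difference, from 10118 and 9291 in Cycle 1 to 1136 and 950.1 in Cycle 2 (-3.22 ± 0.136). Pdk4, the kinase that shuts pyruvate dehydrogenase and a FoxO target, differed by -1.51 ± 0.120. Gas2, a cytoskeletal growth-arrest gene, stood at 1477 and 1356 in Cycle 1 and 508 and 490.3 in Cycle 2 (-1.50 ± 0.0949), and Gas1, a membrane protein first cloned from arrested fibroblasts, at 7081 and 7503 in Cycle 1 and 3467 and 3716 in Cycle 2 (-1.02 ± 0.0940). Olfml1, Mxd4 and Sesn1 were the other called members. The 1 member called higher, Bnip3, is also on the hypoxia list. Ccng2, a FoxO target cyclin, was not called and had a positive difference, at 406 and 365 against 612 and 528 (0.56 ± 0.129).

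Against its own time course up to 27 h, the starved state of Cycle 2 stood near the height of mitotic expression and that of Cycle 1 well below it. As a description, the mean starved value of each gene was set against its highest value at the 29 hours after serum that both Cycles share. The median over the mitotic genes was 23.3% in Cycle 1 and 88.4% in Cycle 2. The mean log2 value of these genes in Cycle 2 was highest at 27 h, its last sample (9.52, against 9.51 at 23 h). Any higher value after that was not sampled. In Cycle 2, 21 of the 75 mitotic genes were above their own highest later value while starved, and in Cycle 1 none was, with a range of 10.4% to 46.7%. Cdk1 reached its highest later value of 4499.5 at 21 h of Cycle 1 and 3001 at 23 h of Cycle 2, which puts its starved mean at 14.1% and 72.9% of it. Replication genes stood at a median of 25.5% and 71.2%, with 0 and 5 of 61 above their highest later value.

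After serum the mean level of mitotic genes in Cycle 2 came back to about its starved value, and in Cycle 1 it rose well above it. The mean of log2 values over the mitotic genes was 7.93 at -1 h, 6.39 at 3 h and 9.80 at 24 h in Cycle 1. In Cycle 2 it was 9.47, 8.48 and 9.51 at the same hours. Both Cycles therefore passed through lower mitotic values in the first hours of serum, and Cycle 2 remained above Cycle 1 there. At 24 h the order of the Cycles was the opposite. Each hour was sampled once, so these later values have no replicate error.

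**Figure D2:**
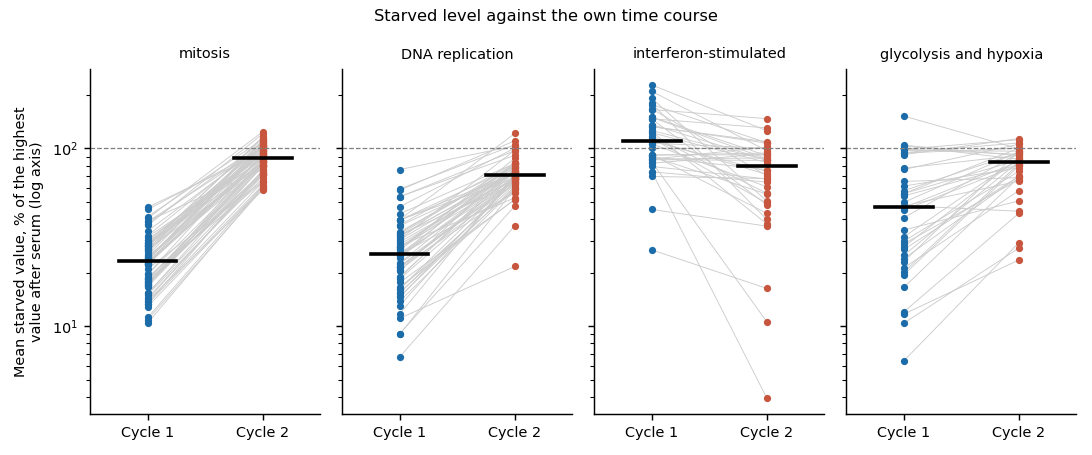
Mean starved value of each gene as a percent of its highest value at the 29 shared hours after serum, on a log axis, 1 dot per gene and the dashed line at 100%. The medians over mitotic genes were 23.3% in Cycle 1 and 88.4% in Cycle 2, and over interferon-stimulated genes 111% and 79.7%.

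Genes of glycolysis, glucose uptake and hypoxia formed a second group that was higher in Cycle 2. Of 40 members, 23 were called higher and 0 lower, with a median of 1.13 and of 1.10 at -1 h alone. Slc16a3, the lactate exporter of glycolytic cells (mm9 chr11:120809794-120822182), stood at 308 and 292 in Cycle 1 and 1797 and 2020.0 in Cycle 2 (2.66 ± 0.107, limma adjusted p = 0.0153). Bnip3, a mitophagy receptor induced by Hif-1, measured 117 and 108 in Cycle 1 and 639 and 586 in Cycle 2 (2.44 ± 0.104). Hk2, the hexokinase that commits glucose to glycolysis, measured 179 and 217 in Cycle 1 and 840.4 and 975 in Cycle 2 (2.19 ± 0.157), and Egln3, an oxygen-sensing prolyl hydroxylase that Hif-1 induces, 88.7 and 90.3 in Cycle 1 and 368 and 398 in Cycle 2 (2.08 ± 0.0910). In each of these 4 genes the Cycle 2 samples lay more than 3-fold above the Cycle 1 samples. Values of Gapdh, Pgk1, Eno1 and Pgam1 are less certain, since near-identical copies in the genome can share their reads. The group's starved mean stood at a median of 47% of the highest later value in Cycle 1 and 84.4% in Cycle 2.

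Lists of protein synthesis, respiration and folding had no calls. Nucleolar ribosome biogenesis genes had a median of 0.53, with 47 of 49 positive, but limma called 0, against 36 at an unadjusted p under 0.05 and 2 called higher by edgeR. Cytosolic ribosomal proteins had a median of -0.32 and 0 calls among 79 by limma or edgeR, with 27 at an unadjusted p under 0.05, where 14 members had values under 10 in all 4 samples and many share reads with pseudogenes. Subunits of oxidative phosphorylation had a median of 0.04 and 0 limma calls among 72, with 6 at an unadjusted p under 0.05 and 1 called higher by edgeR. Chaperones had 0 limma calls among 34 and a median of 0.43, with 19 at an unadjusted p under 0.05 and 2 called higher by edgeR.

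Genes of cholesterol and fatty acid synthesis had a median of 0.51, with 29 of 34 positive and 25 at an unadjusted p under 0.05. Limma called 4 of the 34 higher and edgeR 5. Among the 4 were Idi1, an isoprenoid enzyme (1.53 ± 0.165), Stard4, a cholesterol transporter (1.10 ± 0.124), and Sc5d, a sterol desaturase (1.03 ± 0.125). The Atf4 programme had 1 gene called higher, Ddit4, and 1 lower, Pycr1, of 39. Autophagy and lysosome genes had Tfec and Gla higher and Ctsf lower of 50. Among 26 antioxidant genes the metallothioneins Mt2 (634 and 636 against 1349 and 1615) and Mt1 (764 and 698 against 1505 and 1724) were called higher and the glutathione transferase Gstm1 (1237 and 986 against 499 and 476) lower. Counting both directions, the calls of these 4 lists were few, as were those of all genes (10.1%). The calls of the cholesterol and fatty acid list were all higher, beside 4.04% of all genes called higher.

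**Figure D3:**
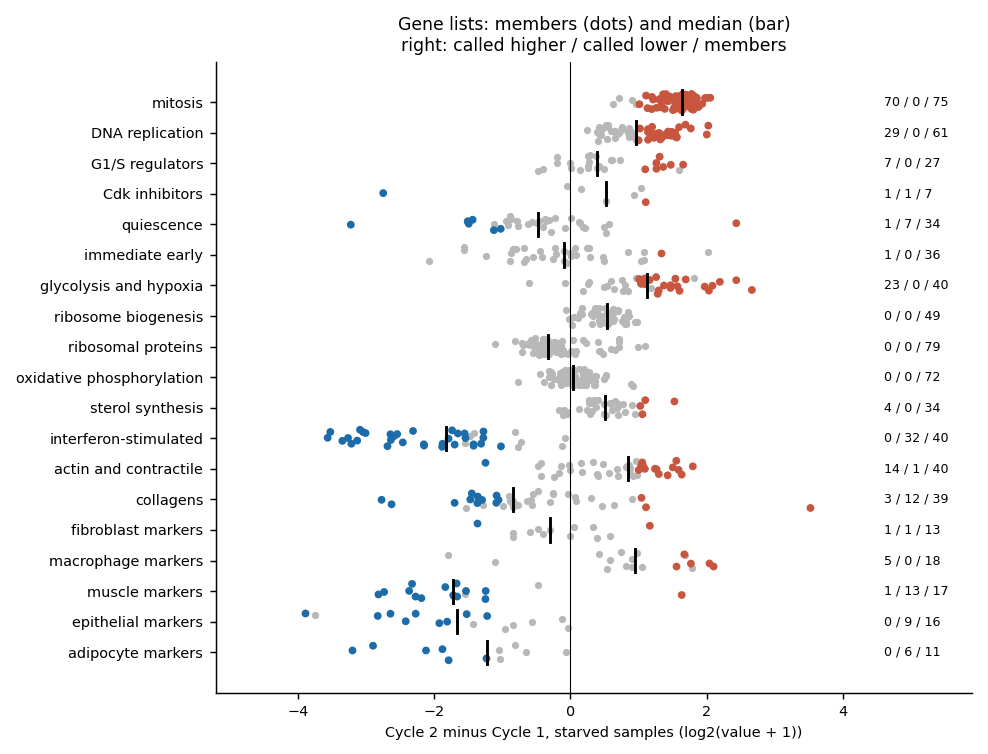
Difference of Cycle 2 minus Cycle 1 in the starved samples on the log2(value + 1) scale, 1 dot per gene, by gene list, with a bar at the median and the counts called higher, called lower and measured at the right. Mitotic genes had a median of 1.64, glycolysis and hypoxia genes 1.13, interferon-stimulated genes -1.83 and muscle markers -1.72.

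Interferon-stimulated genes had the most negative median of the 43 lists. Of 40 members, 32 were called lower in the starved cells of Cycle 2 and 0 higher, with a median of -1.83 and of -2.02 at -1 h alone. These genes encode antiviral effectors and signalling factors that type I interferon induces. Ifit1, which binds foreign RNA caps (mm9 chr19:34715361-34724499), stood at 1434 and 1458 in Cycle 1 and 133 and 118 in Cycle 2 (-3.52 ± 0.103, limma adjusted p = 0.0153). Ifit3, its partner, stood at 618 and 559.8 in Cycle 1 and 56.3 and 57.7 in Cycle 2 (-3.34 ± 0.0974), and reads of closely related Ifit genes may be shared. Oas2, a sensor of double-stranded RNA, measured 227 and 193 in Cycle 1 and 19.1 and 14.8 in Cycle 2 (-3.56 ± 0.178), and Gbp3, a guanylate-binding protein, 552 and 537 in Cycle 1 and 60.1 and 51.9 in Cycle 2 (-3.26 ± 0.114). All 4 were more than 8-fold higher in both samples of Cycle 1 than in either of Cycle 2.

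The starved level was also the high point of Cycle 1 for many of these genes. In Cycle 1, 24 of the 40 stood above their highest later value while starved, with a median of 111%. In Cycle 2, 9 of 40 did, with a median of 79.7%. Their mean log2 value went from 9.25 at -1 h to 7.40 at 3 h and 5.16 at 24 h in Cycle 1, and from 7.19 to 7.01 and 6.35 in Cycle 2. The list median was higher in Cycle 2 at 23 of the 29 shared hours. At 20 to 27 h the median difference was 0.75, so the order of the Cycles was the opposite of that in starvation.

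Chemokines, interleukins and complement had 3 genes called higher and 4 lower of 41, beside 4.04% and 6.02% of all genes. Il1rl1, the receptor of interleukin 33, which fibroblasts transcribe when serum is added, stood at 260.0 and 224 in Cycle 1 and 2631 and 2296 in Cycle 2 (3.34 ± 0.137). Cxcl14, a chemokine of fibroblasts and epithelia, measured 388 and 337 in Cycle 1 and 2192 and 2429 in Cycle 2 (2.67 ± 0.125), and Tslp differed by 2.01 ± 0.246. The genes called lower were the chemokines Ccl5 (-2.55 ± 0.210) and Ccl11 (-1.83 ± 0.105) and the complement factors C3 (-1.32 ± 0.0836) and Cfb (-1.27 ± 0.103). Limma and edgeR called 0 of 15 NF-kB subunits and feedback inhibitors, with 5 at an unadjusted p under 0.05 and a median of -0.14. Of 36 immediate early genes 1 was called higher, Plaur, the urokinase receptor, at 99.2 and 103 against 248 and 265 (1.33 ± 0.0896). The median of that list was 0.08 at -1 h alone and -0.28 at 0 h alone.

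Contractile genes were higher in the starved cells of Cycle 2. Of 40 actin cytoskeleton genes, 14 were called higher and 1 lower, with a median of 0.85 and of 0.82 at -1 h alone. Tagln, an actin-binding protein of myofibroblasts and smooth muscle, stood at 6105 and 5602 in Cycle 1 and 20054 and 20616 in Cycle 2 (1.80 ± 0.0940), and Cnn1, a calponin, at 422 and 402 in Cycle 1 and 1258 and 1225 in Cycle 2 (1.59 ± 0.0854). Acta2, alpha smooth muscle actin, stood at 15034 and 14285 in Cycle 1 and 43398 and 42744 in Cycle 2 (1.56 ± 0.0849). Des, an intermediate filament gene of muscle and pericytes, differed by 1.63 ± 0.109. The 1 member called lower was the cardiac actin Actc1, at 539.6 and 415 against 229 and 173 (-1.24 ± 0.227), which is also a muscle marker. Smooth muscle and pericyte markers, which hold several of the same genes, had 5 called higher and 1, Notch3, lower of 12.

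Targets of Yap and Taz, the mechanosensitive coactivators, had 3 of 22 called higher, beside 4.04% of all genes. Their median was 0.34, and 0.62 at -1 h alone. Ankrd1 stood at 102 and 93.0 in Cycle 1 and 507 and 555 in Cycle 2 (2.43 ± 0.108) and Ctgf, a matricellular protein, at 1715 and 2530.2 in Cycle 1 and 8247 and 9105 in Cycle 2 (2.06 ± 0.237). Birc5, the third, is also a mitotic gene. Proteases of the matrix and their inhibitors had 8 called higher and 4 lower of 35, beside 4.04% and 6.02% of all genes. Timp1, a metalloproteinase inhibitor, stood at 1249 and 1181 in Cycle 1 and 5606 and 5565 in Cycle 2 (2.20 ± 0.0855). The collagenase gene Mmp8 measured 3.01 and 10.9 in Cycle 1 and 76.3 and 67.6 in Cycle 2 (3.40 ± 0.616) and the stromelysin gene Mmp3 689.9 and 615 in Cycle 1 and 2302 and 2281 in Cycle 2 (1.81 ± 0.102). Mmp16, Mmp9, Mmp15 and Adamts10 were called lower, with differences of -1.37, -1.24, -1.17 and -1.01.

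Collagen chains went mostly the other way, with 12 called lower and 3 higher of 39 and a median of -0.84, or -0.85 at -1 h alone. Col10a1, the collagen of hypertrophic cartilage, stood at 10.5 and 12.8 in Cycle 1 and 140.2 and 148 in Cycle 2 (3.52 ± 0.130), and Col8a1 and Col28a1 differed by 1.11 and 1.04. Among the genes called lower, Col15a1, a basement membrane collagen, stood at 1195 and 1322 in Cycle 1 and 379.7 and 394 in Cycle 2 (-1.70 ± 0.0995) and Col14a1, which sits on fibrils, at 4288 and 4360.1 in Cycle 1 and 1567 and 1559.9 in Cycle 2 (-1.47 ± 0.0801). Col9a2 and Col26a1 differed by -2.77 and -2.62. Col1a1, the main fibrillar chain, was not called: it stood at 106465 and 119519 against 87123 and 96896 (-0.30 ± 0.118).

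Other matrix genes had 4 called higher and 8 lower of 48, beside 4.04% and 6.02% of all genes. Tnc, tenascin C, a matrix protein of wounds and embryos, stood at 6497 and 6542 in Cycle 1 and 20836 and 20084 in Cycle 2 (1.65 ± 0.0822), and the hyaluronan synthase gene Has2 at 212 and 257 in Cycle 1 and 615 and 731 in Cycle 2 (1.52 ± 0.164). Mfap5 and Tnn were the other members called higher. Ogn and Aspn, small leucine-rich proteoglycans, stood at 8653 and 8447 against 2216 and 1899 (-2.06 ± 0.118) and at 9617 and 9349 against 2883 and 2738 (-1.75 ± 0.0860). Nid2 and Spon2 differed by -1.72 and -1.66.

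Among ligands of the Tgf-beta and Bmp families, Inhba, the activin A chain, stood at 109.7 and 140.4 in Cycle 1 and 464 and 459.8 in Cycle 2 (1.89 ± 0.158). Grem1, a secreted Bmp inhibitor, stood at 138 and 139.5 in Cycle 1 and 466 and 448 in Cycle 2 (1.71 ± 0.0824). Inhbb and the activin inhibitor Fstl3 were the others called higher and Bmp2 (-1.61) and Bmp5 (-1.48) were called lower, 4 and 2 of 48. Of 46 genes of the Igf, Pdgf, Fgf, Hgf and Egf axes, 2 were called higher and 4 lower, with a median of -0.13. Over all genes 4.04% were called higher and 6.02% lower, and the counts of both lists were not far from these shares. Bdnf, a neurotrophin, stood at 72.1 and 82.1 against 309.8 and 335 (2.05 ± 0.115) and Fgf9 differed by 1.05 ± 0.157.

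The 4 growth factor genes called lower, a share not far from that of all genes, all belong to the Igf axis. Igf2, the fetal growth factor from an imprinted gene, stood at 68461 and 65982 in Cycle 1 and 34309 and 31891 in Cycle 2 (-1.02 ± 0.0916), and Igf1 at 2465 and 2489.7 in Cycle 1 and 1305 and 1121 in Cycle 2 (-1.03 ± 0.116). Both sat just past the size asked for, and edgeR called 2 members of the list lower in place of 4. The binding protein Igfbp5 stood at 17934 and 18070.5 in Cycle 1 and 5263 and 4978 in Cycle 2 (-1.81 ± 0.0854) and Igfbp6 differed by -1.31 ± 0.186. Wnt pathway genes had 3 called higher and 9 lower of 48, beside 4.04% and 6.02% of all genes. Wisp2, a Ccn family gene, stood at 594 and 563 against 1992 and 1906 (1.75 ± 0.0881), with Nkd2 and Wnt4 also higher. The secreted Wnt inhibitor Sfrp2 stood at 13562 and 12094 against 3736 and 3538 (-1.82 ± 0.106), and the receptor Fzd4 and the ligands Wnt11 and Wnt10a differed by -1.48, -1.44 and -1.39.

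Several imprinted and nuclear noncoding RNAs were lower in Cycle 2. Of 12 such RNAs, 5 were called lower and 0 higher, with a median of -0.77. Meg3, Rian and Mirg are transcribed from the maternal allele of 1 imprinted domain. Meg3 stood at 5606 and 4606 in Cycle 1 and 969.9 and 946 in Cycle 2 (-2.41 ± 0.136), Rian at 4199 and 4039 in Cycle 1 and 1642 and 1552 in Cycle 2 (-1.37 ± 0.0881) and Mirg at 452 and 403 in Cycle 1 and 101 and 119 in Cycle 2 (-1.95 ± 0.135). Kcnq1ot1, the noncoding RNA of the imprinted domain that holds Cdkn1c, stood at 113 and 95.7 in Cycle 1 and 50.6 and 39.6 in Cycle 2 (-1.20 ± 0.180), and Snhg12 was the other called member. Malat1, an abundant nuclear RNA, was not called, at 4514 and 5706 against 3715 and 4673 (-0.28 ± 0.199). Reads of both strands were counted together, so an antisense RNA such as Kcnq1ot1 cannot be told apart from its overlapping gene.

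Genes that record the origin of the cells had calls near the 6.02% of all genes called lower, with mostly negative differences below the size asked for. Of 38 Hox genes, 27 had a negative difference, with a median of -0.38, and 1 was called lower, Hoxc13 (15.0 and 15.5 against 4.77 and 6.59), while Hoxd13, a gene of distal limb and genital mesenchyme, stood at 296 and 244 against 181 and 169.8 and Hoxc10 at 253 and 254 against 235 and 226. Of 71 regional transcription factors 61 had a negative difference, with a median of -0.47 and 30 at an unadjusted p under 0.05, and 4 were called lower, namely Osr2 (708 and 730.3 against 149.8 and 194, -2.07 ± 0.166), Prrx2, Msx1 and Tbx2. Limma and edgeR called 0 of 10 X inactivation and Y-linked genes, with 3 at an unadjusted p under 0.05. Xist stood at 2732 and 2917 against 2551 and 2216 and Ddx3y at 607 and 688 against 693 and 719, and both RNAs were thus present in all 4 samples. The clock list had 1 gene called of 21, the nuclear receptor gene Rora (1.22 ± 0.214).

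Fibroblast markers were present in all 4 samples, and markers of other cell types differed between the Cycles. Of 13 fibroblast markers Thy1 was called higher and Lum lower, with a median of -0.30. Macrophage and leukocyte markers had 5 of 18 called higher and 0 lower, with summed values of 1526 and 1427 in Cycle 1 and 4171 and 4116 in Cycle 2. Differences were positive in 16 and negative in 2, from -1.80 to 2.10, and edgeR called 7 higher and 1 lower. Lyz1 and Cx3cr1 were under 10 in all 4 samples. Lyz2, lysozyme of macrophages and neutrophils, stood at 909 and 784 in Cycle 1 and 2873 and 2889 in Cycle 2 (1.77 ± 0.114). This 1 gene made up most of the summed value in each sample. The complement genes C1qc and C1qa differed by 2.10 ± 0.156 and 2.04 ± 0.217, and the mannose receptor gene Mrc1 by 1.67 ± 0.148. The list median was higher in Cycle 2 at all 29 shared hours and by 1.14 at 20 to 27 h. The 0.5 h sample, present in Cycle 2 only, is not a shared hour. There Lyz2 stood at 542, C1qc at 8.31, C1qa at 5.54 and Mrc1 at 36.0, each below its 1 h value in both Cycles. The difference in these 4 genes was thus not constant over the Cycle 2 samples. In the starved samples the macrophage markers were higher in the same Cycle as the mitotic, glycolytic and contractile genes. Their part in those differences was not tested.

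Of the 12 largest rises among called genes with a mean of at least 50, 8 were of genes known from myeloid cells. S100a9 and S100a8, the calprotectin chains of neutrophils, stood at 21.0 and 8.21 in Cycle 1 and 264 and 269 in Cycle 2 (4.23 ± 0.492) and at 22.5 and 11.9 in Cycle 1 and 215 and 233 in Cycle 2 (3.69 ± 0.349). Wfdc17 stood at 31.6 and 25.5 in Cycle 1 and 385 and 373 in Cycle 2 (3.69 ± 0.140), and the neutrophil granule gene Ngp at 13.5 and 10.0 against 142 and 162 (3.59 ± 0.188). Ccl6, a chemokine of myeloid cells, stood at 107 and 85.7 against 1093 and 989.7 (3.43 ± 0.155). Arg1, Fcgr2b and F13a1, genes found in macrophages, differed by 3.42, 3.36 and 3.12. The others included Col10a1 and Il1rl1, described above, and Gjb2, a gap junction gene (2.97). S100a9 was higher in Cycle 2 at all 29 shared hours. At 0.5 h of Cycle 2, not a shared hour, S100a9, S100a8 and Ngp stood at 196, 131 and 123. Wfdc17 stood at 85.9 there, Ccl6 at 176, Arg1 at 20.3, Fcgr2b at 14.3 and F13a1 at 24.0.

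Skeletal muscle markers were higher in the starved cells of Cycle 1. Of 17 members, 13 were called lower in Cycle 2 and 1, Des, higher, with a median of -1.72 and of -1.88 at -1 h alone. Their summed values, Des included, were 4125 and 3303 in Cycle 1 and 2784 and 2642 in Cycle 2. Myh3, the embryonic myosin heavy chain, stood at 509.5 and 437 in Cycle 1 and 101 and 86.5 in Cycle 2 (-2.32 ± 0.145), and Myh8, the perinatal chain, at 213 and 214 against 41 and 23.9 (-2.73 ± 0.302). Ckm, muscle creatine kinase, measured 24.0 and 25.5 against 2.86 and 2.47 (-2.82 ± 0.104) and the light chain gene Myl1 84.2 and 56.5 against 12.4 and 12.8 (-2.37 ± 0.233). After 1 h of serum Myh3 was at 12.1 in Cycle 1 and 19.6 in Cycle 2. The starved mean was above the highest value at the 29 shared hours for 14 of the 17 markers in Cycle 1 and 12 in Cycle 2. The 0.5 h sample of Cycle 2 is not among these hours. There Myh3 stood at 152, Myh8 at 63.7, Myl1 at 14.8 and Ckm at 4.62, all above both starved values of Cycle 2.

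Epithelial, adipocyte and skeletal markers were also lower in Cycle 2 in part. Of 16 epithelial markers 9 were called lower, led by the keratins Krt14 (40.6 and 34.6 against 0.954 and 2.47) and Krt17 (37.6 and 33.7 against 6.68 and 2.47), with Cldn7 and Trp63. These markers were low: 4 of the 16 were under 10 in all 4 samples. The median value of the list was 36.8 and 31.0 in Cycle 1 and 5.78 and 2.73 in Cycle 2, the latter only a few reads. Of 11 adipocyte markers 6 were called lower, with Cfd at 176 and 152 against 12.4 and 23.1, Cidec at 40.6 and 48.3 against 7.63 and 3.30, Plin1 at 113 and 98.0 against 23.8 and 23.1 and Cd36 at 329 and 360.3 against 100.2 and 86.5. The list medians were -1.66 and -1.23, and neither list median was higher in Cycle 2 at any of the 29 shared hours. Of 13 chondrocyte and osteoblast markers, Spp1 (3455 and 3333 against 13748 and 13105) and Matn3 were called higher and Ibsp (30.1 and 38.3 against 3.82 and 4.12), Col11a2 and Col2a1 lower.

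Markers of the remaining cell types were called in either direction, beside 10.1% of all genes. Endothelial markers had Flt1 and Emcn higher and Tek and Esam lower of 13. Neural markers had Dcx and Stmn2 lower of 14, with 4 members under 10 in all 4 samples. Mesothelial markers had Upk1b higher of 7, and erythroid and liver markers had Afp lower of 4.

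The 12 largest falls by the same rule also held genes of other kinds. Ptn, the secreted growth factor pleiotrophin (mm9 chr6:36665663-36761361), stood at 21981 and 21133 in Cycle 1 and 2253 and 2229.9 in Cycle 2 and was 9.62-fold higher in Cycle 1 (-3.26 ± 0.0827, limma adjusted p = 0.0153). Kera, keratocan, a proteoglycan, stood at 702 and 685 in Cycle 1 and 55.3 and 53.6 in Cycle 2 (-3.65 ± 0.0826), and Clec3b, tetranectin, at 429.9 and 364 in Cycle 1 and 27.7 and 16.5 in Cycle 2 (-4.15 ± 0.301). Adamts17, a secreted protease gene, stood at 183 and 162 in Cycle 1 and 5.72 and 5.77 in Cycle 2 (-4.68 ± 0.104). Fmo1, a monooxygenase, differed by -3.34 ± 0.133. Trpm5, an ion channel of taste cells, stood at 125 and 109 in Cycle 1 and 0 and 0.824 in Cycle 2, where 1 value was 0 and the other about 1 read, so no fold is given. Ddx60, an antiviral helicase that interferon induces, differed by -3.59, and Gm4951 and I830012O16Rik by -3.52 and -4.55.

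The starved difference was tested against the difference between the same Cycles at 20 to 27 h after serum. This interaction used 8 hourly samples a Cycle as replicates, which are not independent. It was called in 1792 genes (11.3%), with the starved difference more positive in 734 (4.62%) and more negative in 1058 (6.66%). The 27 h sample of Cycle 2 stood apart in its immediate early genes, whose mean log2 value was 7.30 there and 8.82 at 26 h. With 20 to 26 h alone the counts were 727 more positive and 1007 more negative. Among genes with a mean of at least 100 the balance was the other way, 539 more positive and 303 more negative. Of the mitotic genes 74 of 75 were more positive in starvation and none more negative, and at 20 to 27 h their median difference was -0.29. Top2a differed by 1.72 in starvation and -0.22 at 20 to 27 h, and Cdk1 by 1.78 and -0.34. Replication genes had 42 of 61 more positive and glycolysis and hypoxia genes 21 of 40, with late medians of -0.29 and 0.06. Interferon-stimulated genes had 36 of 40 more negative and none more positive.

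**Figure D4:**
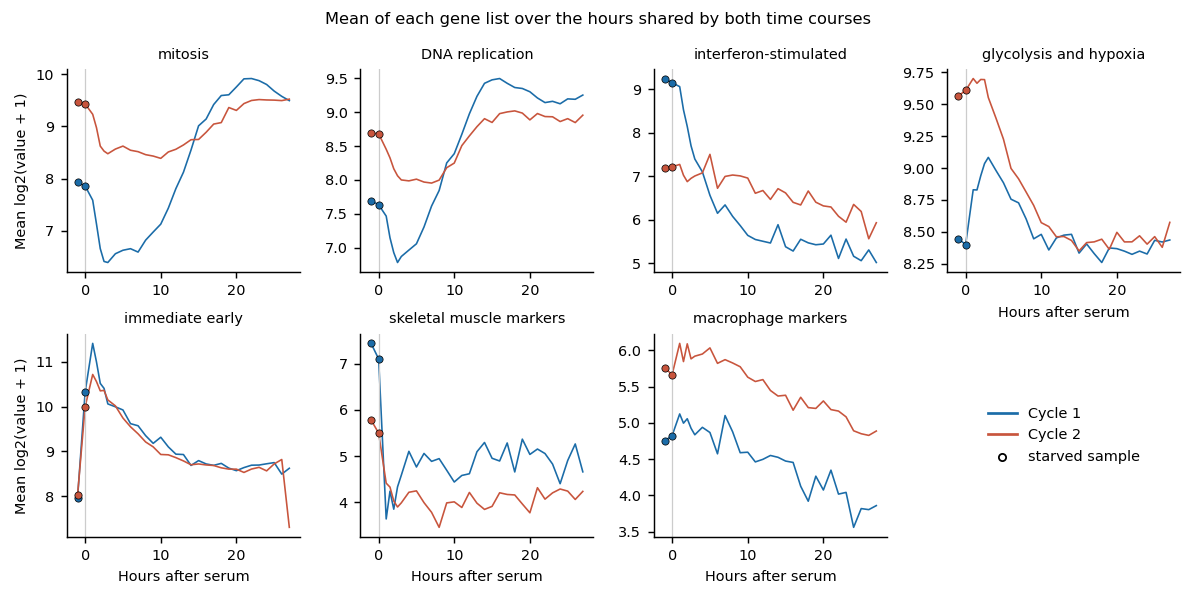
Mean of log2(value + 1) over the members of each gene list at -1 h, 0 h and the hours after serum shared by both time courses, 1 line per Cycle. Mitotic genes started at 7.93 in Cycle 1 and 9.47 in Cycle 2 at -1 h and stood at 9.80 and 9.51 at 24 h. Macrophage markers were higher in Cycle 2 at every hour plotted, which leaves out the 0.5 h sample of Cycle 2.

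Some starved differences were still present in serum. Of 642 genes called higher in starved Cycle 2, 358 had the same sign at 20 to 27 h, not far from an even split. Of the 642, 87 were also over 1 there, which is 13.6% against 2.44% of all genes. Of 957 called lower, 531 had the same sign, again not far from an even split. Of the 957, 75 were also over 1 lower, 7.84% against 1.01%. The share of all genes with the same sign was not taken. The interaction was called in 415 and 569 of these 2 sets in the direction of the starved difference. Over all genes it was called more positive in 4.62% and more negative in 6.66%. The sets were chosen by the starved difference, which is part of the interaction, so the 2 counts are no separate evidence. Cdkn1c kept part of its difference, with -1.01 at 20 to 27 h. Ccnd1 had 0.61 in starvation and -1.19 later, and Gas1 -1.02 and 0.19. Myeloid S100a9 had 4.23 and 4.19.

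**Figure D5:**
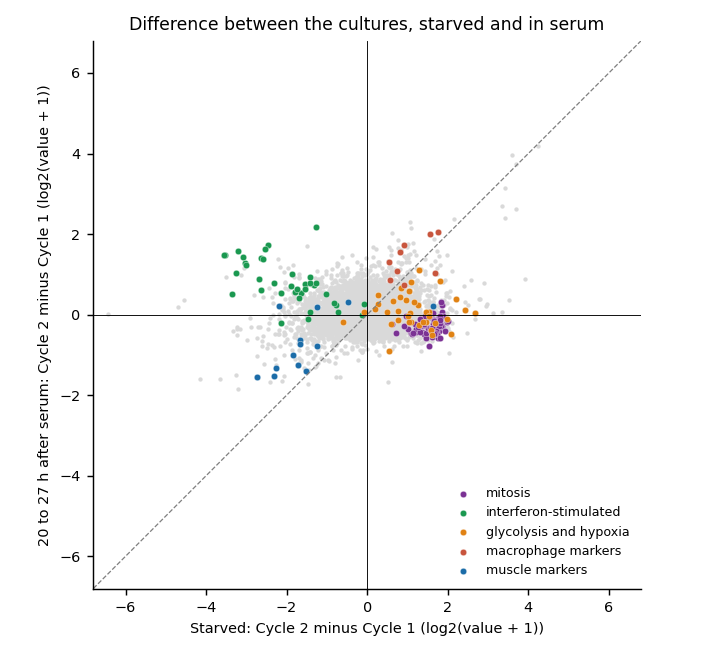
Difference of Cycle 2 minus Cycle 1 on the log2(value + 1) scale in the starved samples (x axis) against the same difference at 20 to 27 h after serum (y axis), 1 dot per gene with list members coloured. Mitotic genes lay to the right near or below 0 on the y axis, with medians of 1.64 and -0.29, and interferon-stimulated genes to the left and above it, at -1.83 and 0.75.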

How the data were processed

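Poly(A) RNA of 96 MEF samples was sequenced with single-end 50 bp reads from stranded libraries. Per the labels and the series design text, the authors used CASAVA, STAR on mm9 and HOMER, whose versions are not given in the sources used here, counted exon reads of both strands and deposited a signal of normalized reads per gene, scaled to 10000000 reads a sample. The step between low values gave back whole reads for 95.4% to 95.7% of low values in the starved samples (tolerance 0.02 reads). Of 96 columns 95 matched a sample, and 1 matched none and was not used.

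From these values limma 3.58.1 (R 4.3.3, trend and robust off, no other filter) was fitted to log2(value + 1) of all 15895 rows in the 4 starved samples, 2 residual degrees of freedom, with Benjamini-Hochberg adjustment, two-sided. The interaction added the 8 whole hours from 20 to 27 h of each Cycle. edgeR 4.0.16 was an alternative on recovered reads. Scripts were tested on simulated data. Chi-square per gene between -1 and 0 h was 13.3 in Cycle 1 and 12.0 in Cycle 2, so neither pair was a repeat of 1 library.

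The named genes were the 12 largest called differences each way with a mean of at least 50, up to 4 called members of each of 43 lists each way, and a set of core genes, with further members named after their values were seen. Some genes that this rule names are not reported here. The samples, lists and rules were chosen with earlier results of these data known, and the members of a list are no independent evidence of its direction. Gene spans on mm9 are from GENCODE vM1, with 14721 genes matched, and promoters from RefSeq. March2 is on 2 rows.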

Additional observations from a re-analysis of the deposited data

Results flagged for a closer look

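The effect of Cycle differed between the starved state and 20 to 27 h of serum, by limma's interaction test with Benjamini-Hochberg adjustment, in 734 genes with a more positive and 1058 with a more negative starved difference. Among the genes with the largest starved differences, the interaction on the log2 scale was 3.29 in Il1rl1, 3.15 in Col10a1, 3.07 in F13a1 and 2.77 in Cxcl14. It was -5.00 in Ifit1, -5.03 in Oas2 and -5.04 in Ddx60. At 24 h Oas2 and Ddx60 measured 0 in Cycle 1 and 9.895 and 11.7 in Cycle 2, so their late differences also depend on the pseudocount. F13a1 was low at that hour too, at 5.92 and 8.995. The fitted value of -6.46 in Trpm5 is set by the pseudocount, since its starved values in Cycle 2 were 0 and about 1 read, and is not a measured fold. The hours served as replicates and are not independent, and the samples that set the late difference are the same for all genes.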

How the results depend on the processing

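With 2 samples a Cycle the counts rest on how limma sets the spread, and under the alternatives run no named gene that was called changed sign. Leaving out any 1 starved sample gave 0 to 683 genes higher and 0 to 861 lower, 0 with limma as used and the higher counts with a mean-variance trend and robust fit, and 681 to 789 and 785 to 885 for the interaction. The lone sample of a Cycle is then assumed to vary like the other Cycle. With hour (-1 or 0 h) as a replicate block limma called 0 higher and 0 lower, with 5936 genes at an unadjusted p under 0.05, and 780 higher and 1311 lower with trend and robust fit, against 736 and 1224 with that fit and no block. The shared hour is not a stated pairing of cultures. A minimum mean of 100 gave 416 higher and 401 lower, and 539 more positive and 303 more negative interactions, so the excess of lower and of more negative genes was not present among these genes. The interaction counts were also nearly even, at 789 more positive and 785 more negative, without the -1 h sample of Cycle 1. Adjusted p alone passed 1361 and 1718, and asking for no overlap in place of a test 1591 lower. By size alone, 1077 were over 1 higher and 1955 lower at -1 h, and 1029 and 1726 at 0 h. All shared hours in place of 20 to 27 h left 46 more positive and 33 more negative interactions. With the mean of the 3 highest hours as reference the mitotic median of Cycle 2 was 92.0%. edgeR on recovered reads gave 792 higher and 988 lower, with 1384 of the 1599 genes shared. Pseudocounts of 0.5 and 10, TMM or median-ratio scaling, a minimum mean of 10 and a GC and length correction gave counts within 1.5 times. The correction, the trend fits with a block or without a sample, the single hours and 20 to 26 h were chosen after seeing the data. The 6653371 reads of Cycle 1 at -1 h, the lowest depth of the 4, limit low genes most.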

Other observations

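Neat1, a nuclear RNA chosen after its values were seen, went from 2955 at -1 h to 597 at 0 h in Cycle 1 and from 1548 to 388 in Cycle 2. Lyz2 in Cycle 2 stood at 2889 at 0 h, 542 at 0.5 h and 4066 at 1 h. Myh3 in Cycle 2 stood at 152 at 0.5 h and 19.6 at 1 h. Each of these hours was sampled once.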
